A study of Mus musculus with 12 samples.

Results

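Transcripts of the translation initiation factors were followed in white adipose tissue of mice fed CLA, with mice fed LA as the control, at 4, 12 and 24 h. The members are all genes whose symbol in the platform annotation starts with Eif. Of 47 such genes with a probe set that names no other gene, 46 passed a filter on dim signals and are described here, out of 12593 genes tested on the arrays. The filter asked for an intensity of 100 on at least 2 of the 12 arrays after each array had been scaled to a trimmed mean of 500, and a gene was read through its probe set with the highest mean. The member with the lowest mean was Eif5a2, with scaled intensities of 73.4 to 206. Both CLA pools of 4 h and LA replicate 1 of 4 h (88.1) were under 100 there. Eif4a3 did not pass, as its single-gene probe set was at or below 0 on every array. Eif1, Eif2s1, Eif3g, Eif3j and Eif4g1 are not among the 47 genes, so what is said of eIF2, eIF3 and eIF4G leaves them out.

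Initiation brings a small ribosomal subunit, the initiator tRNA and the capped end of an mRNA together. The GTPase eIF2 carries the initiator tRNA and is recharged with GTP by eIF2B. Kinases that sense stress phosphorylate eIF2, which blocks eIF2B, lowers general initiation and favours the translation of a few mRNAs such as that of Atf4. At the mRNA end, eIF4E binds the cap and recruits eIF4G and the helicase eIF4A, eIF4E-binding proteins compete with eIF4G for it, and the scaffold eIF3 joins the mRNA complex to the small subunit. In fat, insulin and amino acids act on this machinery through the kinase mTOR.

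The 6 groups were CLA and LA pools of 4, 12 and 24 h, with 2 arrays in each group, and each array held the RNA of 1 pool of 5 mice. Per the labels the pools are biological replicates of RP tissue, and CLA and LA usually stand for conjugated linoleic acid and for linoleic acid. Strain, sex, age, dose and the event from which the hours run are not given in the sources used here. All n below are 2 pools per group, so each p-value rests on the spread between pools and not between single mice. The tissue is bulk, in which fewer cells of a type and less RNA per cell cannot be told apart.

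Between arrays, 44.6% to 49.7% of the probe sets reached an intensity of 100. Replicate 1 of the CLA pools of 4 h stood apart, with an 18S ribosomal RNA signal of 27.4 against 704 to 1432 elsewhere. The members differed more between the CLA pools of 4 h (root mean square SD 0.257 on the log2 scale) than within the other groups (0.153 to 0.193). The same held over all genes (0.528, against 0.393 to 0.461). Actb, whose 3' to 5' signal ratio tracks RNA integrity, had ratios of 3.80 to 6.41 on the 12 h arrays and 2.35 to 4.13 on the others. In every group this ratio was higher in replicate 2 than in replicate 1. Summed over 8 adipocyte markers, the intensity at 24 h was 162356 to 169493 in CLA pools, against 242861 to 268783 in LA pools, and 6 of the 8 markers were lower. Of 9 macrophage markers 4 were higher at 24 h (sums of 29278 to 34872 in CLA pools, against 20670 to 23637 in LA pools). All 4 measured neutrophil markers were higher as well (2662 to 3854 in CLA pools, against 567 to 720 in LA pools), while Cxcr2, a defining neutrophil receptor, was at 27.9 or less on every array. Summed over 5 liver markers the intensity at 24 h was 2187 to 3667 in CLA pools, against 7693 to 11891 in LA pools, and 2 were lower. Of 7 skeletal muscle markers 1, Myl1, was lower at 24 h (sums of 2384 to 2767 in CLA pools, against 4239 to 5380 in LA pools). At 12 h the median difference of the muscle markers was 2.329 with 0 called (sums of 5203 to 7150 in CLA pools, against 3956 to 4955 in LA pools). Star, a steroidogenic gene listed as a kidney or adrenal marker, had 2842.5 and 3646.7 in CLA pools of 24 h, against 278.4 and 390.7 in LA pools (adjusted p = 0.000153 by limma), while the other adrenal markers Cyp11a1 and Cyp11b1 did not pass the filter. Of 5 endothelial markers 1 was lower at 24 h. None of these lists had a called marker at 12 h. Whether cell makeup has a part in the 12 and 24 h values below was not tested.

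Of the 46 members, 34 had a scaled intensity of 1000 or more on every array, and the highest member value was 35.6% of the highest value on its array. Averaged over the members, the log2 intensity at 4 h was 11.33 and 11.36 in CLA pools, against 11.38 and 11.37 in LA pools. At 12 h this average was 11.50 and 11.54 in CLA pools, against 11.37 and 11.36 in LA pools. The average at 24 h was 11.53 and 11.53 in CLA pools, against 11.33 and 11.34 in LA pools. The diets did not overlap in this average, with the CLA pools slightly below the LA pools at 4 h and above them at 12 and 24 h. The median diet difference of the members (CLA minus LA, log2) was -0.06 at 4 h, 0.17 at 12 h and 0.25 at 24 h, beside 0.01, -0.02 and 0.02 over all 12593 genes. Positive differences were counted for 20, 32 and 33 of the 46 members at the 3 times (43.5%, 69.6% and 71.7%), beside 52.3%, 47.7% and 51.1% of all genes. A difference below 0 at 4 h followed by differences above 0 at 12 and 24 h was the sign pattern of 17 members (37%), and of 11.3% of all genes. Without scaling of the single arrays the shift of all genes was itself -0.126, -0.152 and 0.229, with member medians of -0.202, 0.036 and 0.465.

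**Figure D1:**
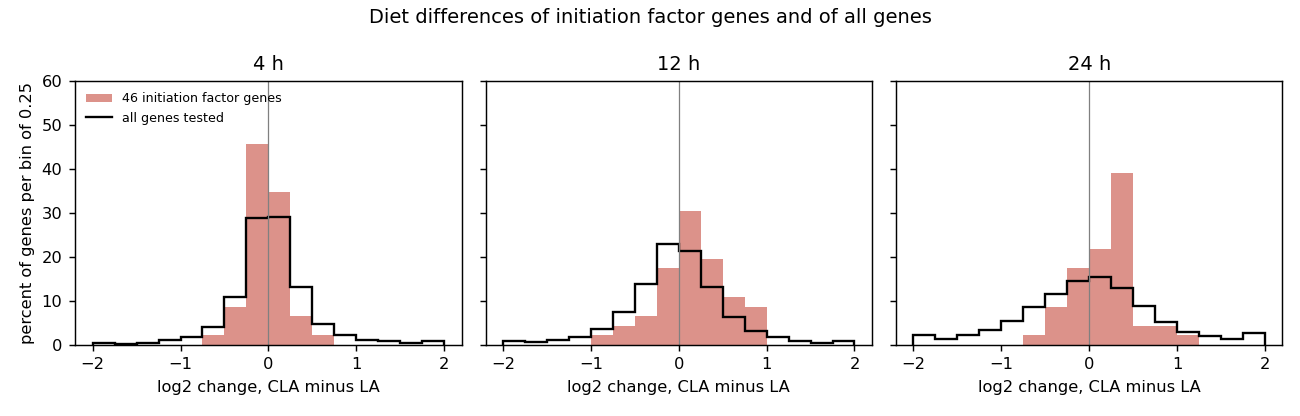
Distribution of the diet differences (log2, CLA minus LA) at 4, 12 and 24 h, in bins of 0.25, as the percent of the 46 initiation factor genes (filled) and of all 12593 genes tested (line). The end bins also hold all values beyond the axis, and the filled distribution lies to the right of the line at 12 and 24 h, with medians of 0.17 and 0.25.

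The shift was made of small differences, few of which passed the test. With limma and Benjamini-Hochberg adjustment over all genes at 0.05, 0 of 46 members were called at 4 h (0.0556% of all genes were called). At 4 h 2 members and 866 genes had an unadjusted p under 0.05. At 12 h, 2 members (4.35%) were called higher and 0 lower, beside 2.11% of all genes higher and 2.41% lower, and the unadjusted p was under 0.05 for 12 members and for 2332 of the 12593 genes. By 24 h, 4 members (8.7%) were called higher and 0 lower, beside 10.7% and 11% of all genes, and 11 members and 4417 genes had an unadjusted p under 0.05. Averaged over the 3 times, 6 members (13%) were higher and 1 (2.17%) was lower, beside 7.41% and 7.78% of all genes. The members called higher are Eif3d and Eif6 at 12 h, and Eif2b4, Eif2s2, Eif3d and Eif6 at 24 h, with Eif5 and Eif5b added in the average, in which Eif4e3 was lower. Their share of calls at 24 h did not exceed that of all genes in the higher direction.

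By order of the pools, both CLA pools lay above both LA pools for 8, 23 and 26 members at 4, 12 and 24 h (17.4%, 50% and 56.5%), beside 15.8%, 24.3% and 33.1% of all genes. Both CLA pools lay below both LA pools for 11, 10 and 10 members (23.9%, 21.7% and 21.7%), beside 14.6%, 28.5% and 31.7% of all genes. From one time to another, the diet difference of 0 members changed between 4 and 12 h (0.0238% of all genes) and of 0 members between 12 and 24 h (2.29% of all genes), with 8 and 4 members, and 1237 and 2616 genes, at an unadjusted p under 0.05. Between 4 and 24 h it changed for 1 member, Eif6 (6.88% of all genes). Among the LA pools alone, 0 members were called between 4 and 12 h, 12 and 24 h or 4 and 24 h (0.00794%, 0.0159% and 0% of all genes), while 10, 3 and 4 members, and 2162, 1288 and 1032 genes, had an unadjusted p under 0.05.

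**Figure D2:**
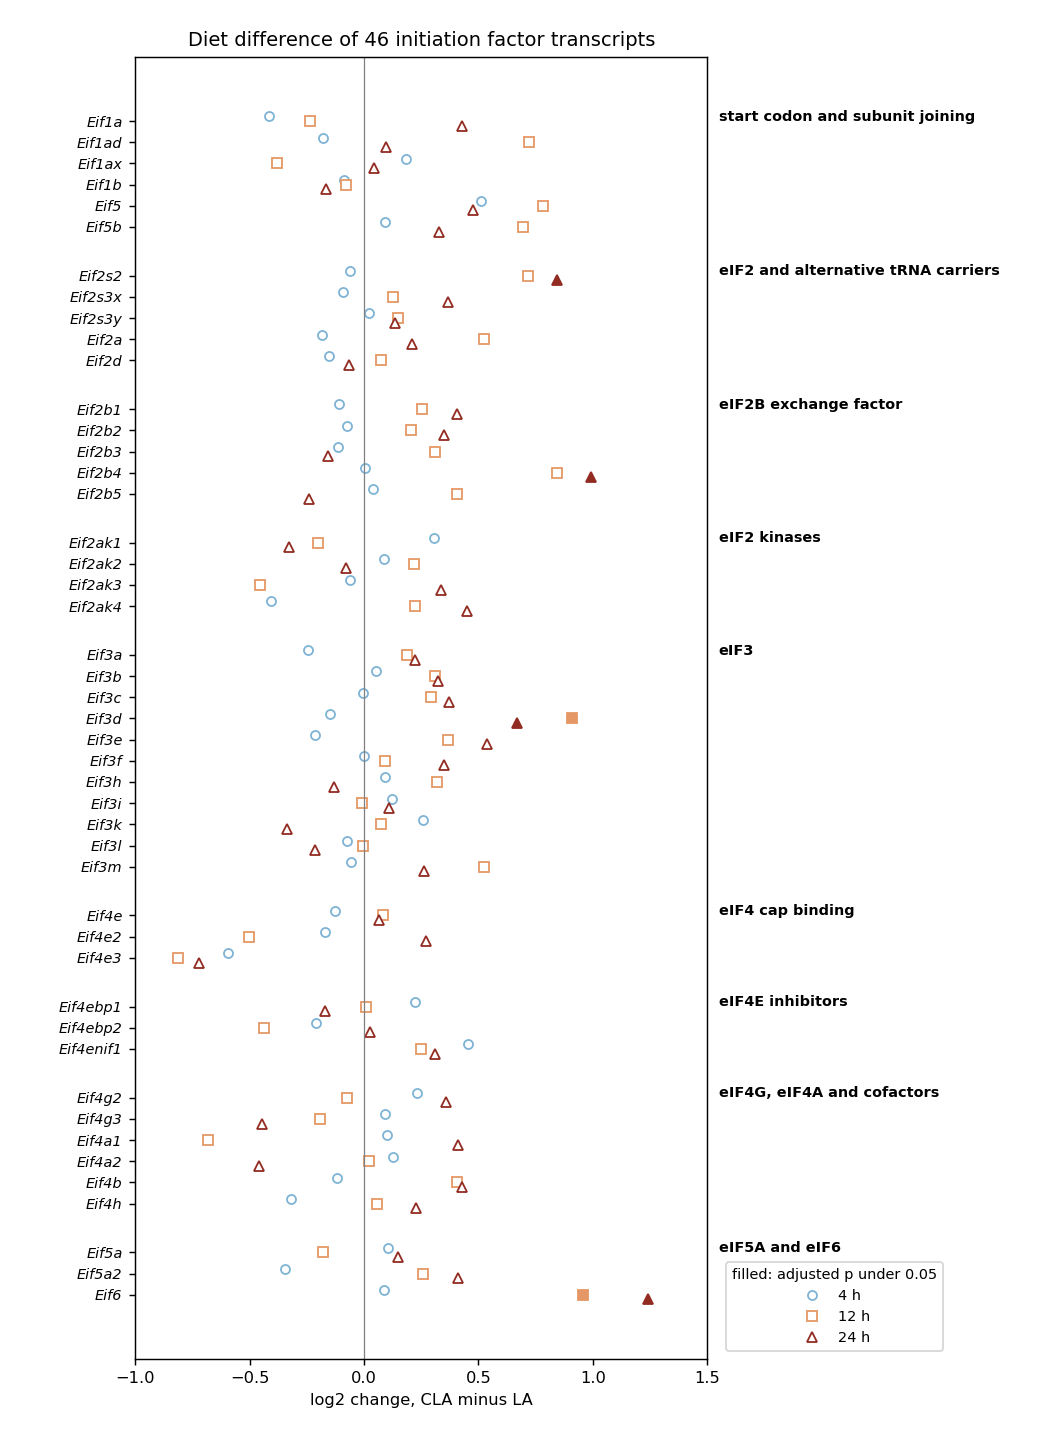
Diet difference (log2, CLA minus LA) of each of the 46 initiation factor genes at 4 h (circles), 12 h (squares) and 24 h (triangles), sorted by role, with filled symbols for an adjusted p under 0.05 by limma. Filled symbols are those of Eif3d and Eif6 at 12 h and of Eif2s2, Eif2b4, Eif3d and Eif6 at 24 h, all to the right of 0.

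Promoters are shown for Eif3d, Eif2b4 and Eif2s2, which were called higher at 24 h and have an entry in the RefSeq promoter table, and for Eif5, which was higher on average. They run over the 250 bases before the annotated start in the mouse build GRCm38.p6, 5′ to 3′ on the strand of the gene. The Eif3d promoter lies at chr15:77970825-77971074 on the minus strand, that of Eif2b4 at chr5:31193140-31193389 on the minus strand, that of Eif2s2 at chr2:154892907-154893156 on the minus strand and that of Eif5 at chr12:111537851-111538100 on the plus strand. Capitals mark matches, on either strand, to the GC box (GGGCGG), the ETS site (CCGGAAG), the E-box (CACGTG), the ATF4 element (TGATGNAA), the NRF1 site (GCGC, any base, then TGCGC), the TATA box (TATAAA) or the CCAAT box (CCAAT).
Eif3d: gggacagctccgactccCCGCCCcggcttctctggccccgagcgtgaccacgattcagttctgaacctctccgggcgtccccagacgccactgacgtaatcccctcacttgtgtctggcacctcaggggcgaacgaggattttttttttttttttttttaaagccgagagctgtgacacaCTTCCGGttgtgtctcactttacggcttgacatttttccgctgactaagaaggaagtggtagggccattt
Eif2b4: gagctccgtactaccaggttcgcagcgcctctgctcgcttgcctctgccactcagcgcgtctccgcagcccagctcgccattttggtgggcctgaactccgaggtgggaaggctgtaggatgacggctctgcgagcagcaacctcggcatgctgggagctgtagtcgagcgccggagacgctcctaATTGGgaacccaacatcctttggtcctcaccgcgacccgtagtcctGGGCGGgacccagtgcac
Eif2s2: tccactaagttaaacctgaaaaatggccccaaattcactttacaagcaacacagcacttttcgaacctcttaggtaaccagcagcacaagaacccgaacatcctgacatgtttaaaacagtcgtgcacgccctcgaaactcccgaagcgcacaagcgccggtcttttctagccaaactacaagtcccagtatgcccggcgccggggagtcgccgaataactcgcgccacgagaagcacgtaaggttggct
Eif5: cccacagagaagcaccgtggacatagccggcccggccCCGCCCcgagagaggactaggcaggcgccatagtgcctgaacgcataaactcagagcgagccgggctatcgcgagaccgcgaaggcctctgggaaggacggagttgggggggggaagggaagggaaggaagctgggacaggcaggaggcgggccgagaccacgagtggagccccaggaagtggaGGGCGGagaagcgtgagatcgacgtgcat
The Eif3d promoter holds a GC box and an ETS site, that of Eif2b4 a CCAAT box and a GC box, that of Eif5 a pair of GC boxes, and that of Eif2s2 no match to these letters.

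Over the 37 members with a promoter in the table, 27 held a GC box (73.0%, against 61.5% of the 10122 tested genes and 35.4% of all 27025 genes with one). The ETS site was in 11 members (29.7%, against 14.7% of tested and 7.83% of all genes), and the E-box in 8 (21.6%, against 9.67% and 6.86%). The ATF4 element was in 1 member, Eif2s3x (2.7%, against 2.61% and 3.91%). NRF1 sites were in 4 members (10.8%, against 8.95% and 4.23%), TATA boxes in 3 (8.11%, against 8.75% and 14.3%) and CCAAT boxes in 13 (35.1%, against 39.9% and 37.5%). An occurrence of these letters is a description of the window and no evidence of binding.

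Among the factors of start codon choice and subunit joining, Eif5, which stimulates GTP hydrolysis by eIF2, was higher on average. Eif5 at 4 h had scaled intensities of 7796 and 10522 in CLA pools, against 5845 and 6878 in LA pools. At 12 h Eif5 had 12006 and 13197 in CLA pools, against 6618 and 8066 in LA pools, and at 24 h 11502 and 12310.1 in CLA pools, against 8454 and 8649 in LA pools. The pools of the diets did not overlap at any time. Its average difference was 0.59 ± 0.11 (log2 change ± standard error of the fit, 1.51-fold, adjusted p = 0.00981 by limma), and it was called in every fit that left out 1 array. At single times the difference was 0.51, 0.78 and 0.48, with adjusted p = 0.610, 0.0607 and 0.112. With all probe sets tested together, 3 of its 5 were called on average, and 1 was called at 12 h (0.95) and at 24 h (0.63). The dimmest probe set went the other way, with -0.27 at 24 h and -0.31 on average. The others had 0.41 to 0.78 on average.

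Eif5b, the GTPase that joins the large subunit, had 2036 and 1821 in CLA pools of 12 h, against 1312 and 1066 in LA pools. At 24 h it had 1481 and 1490.5 in CLA pools, against 1336 and 1040.1 in LA pools, and at 4 h 1169 and 1292 in CLA pools, against 1078 and 1232 in LA pools. The diets were apart at 12 and 24 h and overlapped at 4 h. Its average difference of 0.37 ± 0.10 lay close to the threshold (adjusted p = 0.0468 by limma). The call was lost without any 1 of 11 arrays, the exception being LA replicate 1 of 24 h (adjusted p = 0.0505 to 0.118), and with all probe sets of the gene averaged (0.22, adjusted p = 0.381).

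The 4 other genes of this set, the scanning factors Eif1a, Eif1ax and Eif1b and the eIF1A-related Eif1ad, had no call at any time. Eif1ax lay lower in both CLA pools of 12 h (5745 and 5917 in CLA pools, against 7683 and 7515 in LA pools), with a difference of -0.38 (adjusted p = 0.234 by limma). Eif1ad had 748 and 774 in CLA pools of 12 h, against 462 and 449 in LA pools, with a difference of 0.72 (adjusted p = 0.138 by limma) in the probe set used and -0.29 in its other probe set. Eif1a and Eif1ax are close paralogues, as are Eif2s3x and Eif2s3y, Eif5a and Eif5a2, and Eif4a1 and Eif4a2, and a probe set could read both members of such a pair.

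Of eIF2 itself, Eif2s2, the beta subunit that contacts eIF5 and eIF2B, was higher at 24 h. Its scaled intensity at 24 h was 19102 and 19814 in CLA pools, against 11021 and 10621 in LA pools. The corresponding values of 12 h were 17660.0 and 20188 in CLA pools, against 11867 and 11138 in LA pools, and those of 4 h were 8902 and 12300.1 in CLA pools, against 10493 and 11369 in LA pools. The LA pools thus stayed between 10493 and 11867 at all times, while the CLA pools of 12 and 24 h were all above them. The difference was 0.85 ± 0.18 at 24 h (1.80-fold, adjusted p = 0.0129 by limma), 0.71 at 12 h (adjusted p = 0.0664) and -0.06 at 4 h, and 0.50 on average (adjusted p = 0.0148). At 24 h the call was lost without any 1 of the 4 arrays of that time (adjusted p = 0.0502 to 0.0784, differences of 0.82 to 0.87), while the average was called without any 1 array. Of its 6 probe sets 3 were called at 24 h with all probe sets tested together, over a range of 0.29 to 1.18.

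The gamma subunit genes Eif2s3x and Eif2s3y, which hold GTP and the initiator tRNA, and the alternative tRNA carriers Eif2a and Eif2d had no call. Their differences ran from 0.07 to 0.53 at 12 h and from -0.07 to 0.37 at 24 h. The Eif2s3x probe sets were alike at 24 h (0.32 to 0.37, none called).

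Among the 5 subunits of the exchange factor eIF2B, Eif2b4, the delta subunit of its regulatory part, was higher at 24 h. It had 2214 and 2268 in CLA pools of 24 h, against 904 and 1386 in LA pools. In the 12 h pools it had 1802 and 2339 with CLA, against 1019.9 and 1268 with LA, and in the 4 h pools 1201 and 971 with CLA, against 979 and 1181 with LA. The diets were apart at 12 and 24 h only. The difference was 0.99 ± 0.25 at 24 h (1.99-fold, adjusted p = 0.0249 by limma), 0.84 at 12 h (adjusted p = 0.109), 0.01 at 4 h and 0.61 on average (adjusted p = 0.0244). In fits without LA replicate 1 or either CLA replicate of 24 h, the 24 h call was lost (adjusted p = 0.0948 to 0.124). For the average, the arrays whose omission ended the call were LA replicate 1 of 4 h, LA replicate 1 and CLA replicate 2 of 12 h, and both CLA replicates of 24 h (adjusted p = 0.0597 to 0.0692). Eif2b4 was read by 1 probe set only, without a check from another.

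At 12 h all 5 eIF2B genes had a positive difference (0.20 to 0.84), beside 47.7% of all genes, and none was called. Both CLA pools lay above both LA pools for 4 of them, beside 24.3% of all genes. At 24 h the catalytic subunit gene Eif2b5 was on the other side (564 and 421 in CLA pools, against 632 and 531 in LA pools), with -0.24, and Eif2b3, which pairs with it, was at -0.16. Eif2b1 and Eif2b2, of the regulatory part like Eif2b4, had 0.41 and 0.35, again without a call.

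None of the 4 genes of the kinases that phosphorylate eIF2 was called at any time. Eif2ak1, the heme-regulated kinase, had 1233 and 546 in CLA pools of 4 h, against 754 and 581 in LA pools, so that only the CLA replicate with the low 18S signal stood out. At 12 h Eif2ak1 had 546 and 564 in CLA pools, against 678 and 603 in LA pools, and at 24 h 549 and 534 in CLA pools, against 670.1 and 698 in LA pools. Both later differences were below 0 with the diets apart (-0.20 and -0.33, adjusted p = 0.818 and 0.525 by limma). The other 2 measured probe sets of Eif2ak1 had 0.22 and 0.52 at 12 h and -0.75 and -0.16 at 24 h, so its direction at 12 h depends on the probe set.

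Eif2ak2, the kinase of double-stranded RNA known as PKR, had 346 and 356 in CLA pools of 4 h, against 285 and 379.9 in LA pools. At 12 h it had 574 and 590.4 in CLA pools, against 489 and 508 in LA pools, and at 24 h 509 and 608 in CLA pools, against 551 and 629 in LA pools. In the probe set used, all pools of 12 and 24 h read above all pools of 4 h, and the diets overlapped at 4 and 24 h. The next brightest probe set lacked this rise, with 347 and 208 in LA pools of 24 h, against 338 to 412 in the 4 h pools. The 24 h difference was -0.08 in the probe set used and 0.91 and 0.86 in the other 2, none of them called, so the direction at 24 h depends on the probe set.

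Eif2ak3, the kinase of the endoplasmic reticulum known as PERK, had 463 and 377 in CLA pools of 4 h, against 452 and 423 in LA pools. At 12 h Eif2ak3 had 346 and 376 in CLA pools, against 449 and 556 in LA pools, and at 24 h 556 and 558 in CLA pools, against 359 and 534 in LA pools. The CLA pools were below the LA pools at 12 h and above them at 24 h. The differences of -0.45 and 0.34 had adjusted p = 0.305 and 0.301 by limma, and their change between these times was not called.

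Eif2ak4, the amino acid sensor known as GCN2, was dim. It had 113 and 107 in CLA pools of 4 h, against 118 and 191 in LA pools, and 153 and 250.3 in CLA pools of 12 h, against 178 and 154 in LA pools. At 24 h Eif2ak4 had 178 and 234 in CLA pools, against 158 and 134 in LA pools. The differences of -0.41, 0.22 and 0.45 had 95% intervals that all held 0 (-1.05 to 0.23, -0.42 to 0.86 and -0.19 to 1.09).

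**Figure D3:**
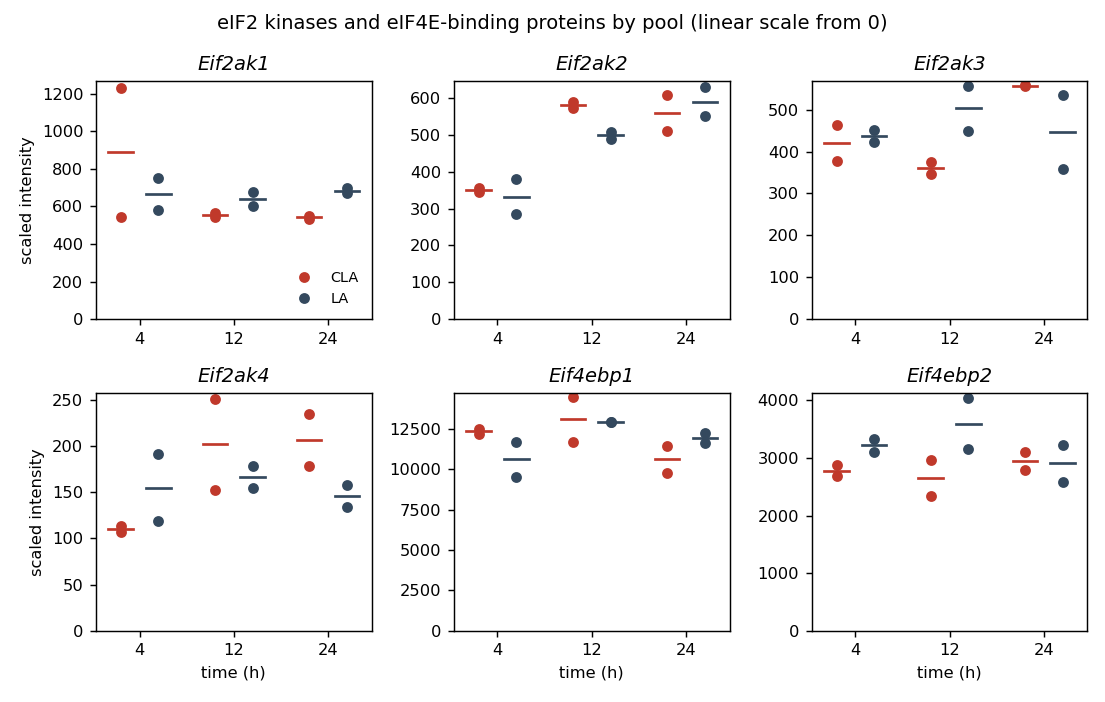
Scaled intensity (linear axes from 0) of the 4 eIF2 kinase genes and of Eif4ebp1 and Eif4ebp2 in each pool at 4, 12 and 24 h, CLA left of LA, with bars for the mean of 2 pools. None of these 6 genes was called at any time in the probe set used, and the highest Eif2ak1 value, 1233, is 1 of the CLA pools of 4 h.

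The scaffold eIF3 was measured through 11 subunit genes, of which Eif3d, a subunit that can itself bind the mRNA cap, was called higher at 12 and 24 h. Eif3d had 5285 and 5341 in CLA pools of 12 h, against 2496 and 3190.4 in LA pools. At 24 h it was 5025 and 4822 in CLA pools, against 2889 and 3300.1 in LA pools, and at 4 h 3037 and 2725 in CLA pools, against 3549 and 2864 in LA pools. The 4 CLA pools of 12 and 24 h were above all 8 other pools. The difference was 0.91 ± 0.18 at 12 h (1.88-fold, adjusted p = 0.0297 by limma), 0.67 ± 0.18 at 24 h (1.59-fold, adjusted p = 0.0308), -0.15 at 4 h and 0.48 on average (adjusted p = 0.0179). The 12 h call was lost without any 1 array of 12 h and without either 24 h CLA pool (adjusted p = 0.0614 to 0.159), and the 24 h call without any 1 array of 24 h and without either 12 h CLA pool (adjusted p = 0.0503 to 0.137). In the fit without CLA replicate 1 of 24 h the average had adjusted p = 0.0530. Only 1 probe set of Eif3d passed the filter, so the value has no check from another.

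The other 10 eIF3 genes had no call. Eif3e had the next largest difference at 24 h (15071 and 13822 in CLA pools, against 10072 and 9789 in LA pools), with 0.54 and adjusted p = 0.0704 by limma, and its 3 probe sets spanned 0.50 to 0.54. For the core subunit genes Eif3a, Eif3b and Eif3c the 24 h differences were 0.22, 0.32 and 0.37. At 24 h 8 of the 11 eIF3 genes had both CLA pools above both LA pools, beside 33.1% of all genes. The other 3, Eif3h, Eif3k and Eif3l, had both below (-0.13, -0.34 and -0.21), beside 31.7% of all genes. A dimmer probe set of Eif3h had 1.31 at 24 h, not called, so its direction at that time depends on the probe set. At 12 h no eIF3 gene had both CLA pools below, beside 28.5% of all genes, and the lowest difference was -0.01. Eif3l had 6385 and 6006 in CLA pools of 24 h, against 7405 and 6963 in LA pools.

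Of the cap-binding genes, Eif4e3, a relative of eIF4E, was the 1 member that was lower with CLA on average. It had 2683 and 4009 in CLA pools of 4 h, against 5279 and 4654 in LA pools, and 2515 and 3006 in CLA pools of 12 h, against 4964 and 4723 in LA pools. At 24 h Eif4e3 had 3746 and 2761 in CLA pools, against 5213 and 5422 in LA pools. All 6 CLA pools were below all 6 LA pools, as for 1.37% of all genes. The average difference was -0.71 ± 0.13 (1.64-fold lower, adjusted p = 0.0102 by limma), called without any 1 array, and at single times it was -0.59, -0.81 and -0.72 (adjusted p = 0.642, 0.0982 and 0.0580). Its other probe set had -1.02 at 24 h (adjusted p = 0.00462 with all probe sets tested together) and -0.02 at 4 h, so the probe sets differ on whether the 4 h pools were apart. Summed adipocyte markers were lower at 24 h as well, as given above, and their part in this difference was not tested.

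Eif4e, the main cap-binding protein, had differences of -0.13, 0.08 and 0.07 and no call. Eif4e2, a cap-binding relative, had 2434 and 2691 in CLA pools of 12 h, against 3506 and 3774 in LA pools, and 3539 and 3811 in CLA pools of 24 h, against 3015 and 3061 in LA pools. The CLA pools were below the LA pools at the earlier and above them at the later of these times, with -0.50 (adjusted p = 0.0963 by limma) and 0.27. The other 4 probe sets of Eif4e2 had -1.12 to -0.08 at 24 h, so its direction at that time depends on the probe set.

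The genes of the eIF4E-binding proteins, which hold eIF4E away from eIF4G when mTOR is inactive, were not called in the probe sets used. Eif4ebp1 had 12475 and 12209.8 in CLA pools of 4 h, against 9537 and 11706 in LA pools. It had 11678 and 14492 in CLA pools of 12 h, against 12948 and 12924 in LA pools, and 9796 and 11463 in CLA pools of 24 h, against 11629 and 12234 in LA pools. The CLA pools were above at 4 h, overlapping at 12 h and below at 24 h, with differences of 0.22, 0.01 and -0.17 (95% interval at 24 h -0.56 to 0.22). At 24 h the other probe sets of Eif4ebp1 had -0.71 and -0.65, below that interval, and neither was called. They had 0.22 and 0.79 at 4 h, and 0.42 and -0.02 at 12 h. The size of the Eif4ebp1 difference at 24 h thus depends on the probe set.

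Eif4ebp2 had 2884 and 2681 in CLA pools of 4 h, against 3102 and 3337 in LA pools, and 2338 and 2967 in CLA pools of 12 h, against 3148 and 4049 in LA pools. At 24 h Eif4ebp2 had 2790.2 and 3108 in CLA pools, against 3231 and 2589 in LA pools. The diets overlapped at 24 h, with a difference of 0.03. Of its 4 other probe sets, 1 with a mean of 907 was called lower at 24 h and on average (-0.93 and -0.88). Its adjusted p was 0.0417 and 0.00864 by limma with all probe sets tested together, and it had -0.74 and -0.98 at 4 and 12 h. Another with a mean of 38.9 was called lower too, and both CLA pools of 24 h were at 0 there. The eIF4E partner Eif4enif1, which carries eIF4E into the nucleus, had 936 and 779 in CLA pools of 4 h, against 665 and 577 in LA pools, a difference of 0.45 without a call, and 0.34 on average (adjusted p = 0.124 by limma).

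The genes of eIF4G, eIF4A and their cofactors had no call in the probe sets used, and their directions were mixed. Eif4a1, the helicase that unwinds the leader of the mRNA, had 9185 and 10509 in CLA pools of 12 h, against 15277 and 16289 in LA pools. At 24 h it had 11419 and 12797 in CLA pools, against 10201 and 8079 in LA pools, so that the order of the diets was turned round in the probe set used. The differences were -0.68 (adjusted p = 0.0832 by limma) and 0.41 (adjusted p = 0.149), and the change between them was not called. The other 2 probe sets of Eif4a1 had -0.41 and -0.25 at 12 h and -0.07 and -0.07 at 24 h, so the order turned in 1 of its 3 probe sets. Its close relative Eif4a2 had 5432 and 5198 in CLA pools of 24 h, against 6552 and 8173 in LA pools (-0.46, adjusted p = 0.0553). Eif4g2, a relative of eIF4G that does not bind eIF4E, had 17934 and 21562 in CLA pools of 24 h, against 15669 and 15047 in LA pools (0.36, adjusted p = 0.106), while the eIF4G gene Eif4g3 had 712 and 722 in CLA pools, against 1058 and 912 in LA pools (-0.45, adjusted p = 0.120). The eIF4A cofactors Eif4b and Eif4h had 0.43 and 0.23 at 24 h. The 3 probe sets of Eif4b had 0.43 to 0.55 at 24 h and 0.41 to 0.63 at 12 h. The dimmest of them was called on average (0.47, adjusted p = 0.0289 by limma with all probe sets tested together).

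Eif6, which keeps the large ribosomal subunit from joining the small one too early and takes part in making it, had the largest difference of all 46 members at 12 and 24 h. At 24 h Eif6 had 3061 and 2905 in CLA pools, against 1151 and 1366 in LA pools. The 12 h values were 2006 and 1966 in CLA pools, against 964 and 1066 in LA pools, and those of 4 h were 1616 and 1286 in CLA pools, against 1557 and 1182 in LA pools. The diets overlapped at 4 h and were apart at the later times, with the CLA pools of 24 h above all other pools. The difference was 0.96 ± 0.19 at 12 h (1.94-fold, adjusted p = 0.0301 by limma) and 1.24 ± 0.19 at 24 h (2.36-fold, adjusted p = 0.00346), beside 0.09 at 4 h and 0.76 on average (adjusted p = 0.00362). Between 4 and 24 h the difference grew by 1.15 ± 0.27 (adjusted p = 0.0416). The 24 h and average calls stood in every fit that left out 1 array, but with all probe sets of the gene averaged the average difference was 0.49 and not called (adjusted p = 0.101).

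The 12 h call of Eif6 was lost without any 1 array of 12 h and without either 24 h CLA pool (adjusted p = 0.0615 to 0.153). The growth between 4 and 24 h was lost without any 1 array except CLA replicate 1 of 4 h (adjusted p = 0.0526 to 0.120). A second, dimmer probe set of Eif6, with a mean of 224, had -0.61 at 12 h and 1.004 at 24 h, neither called, so the probe sets share the direction at 24 h and not at 12 h. With all probe sets tested together, the brighter one had adjusted p = 0.0559 at 12 h and 0.00691 at 24 h. Eif5a, which helps the ribosome through difficult stretches, had differences of 0.10, -0.18 and 0.15 and no call, and its dim relative Eif5a2 had -0.35, 0.26 and 0.41.

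**Figure D4:**
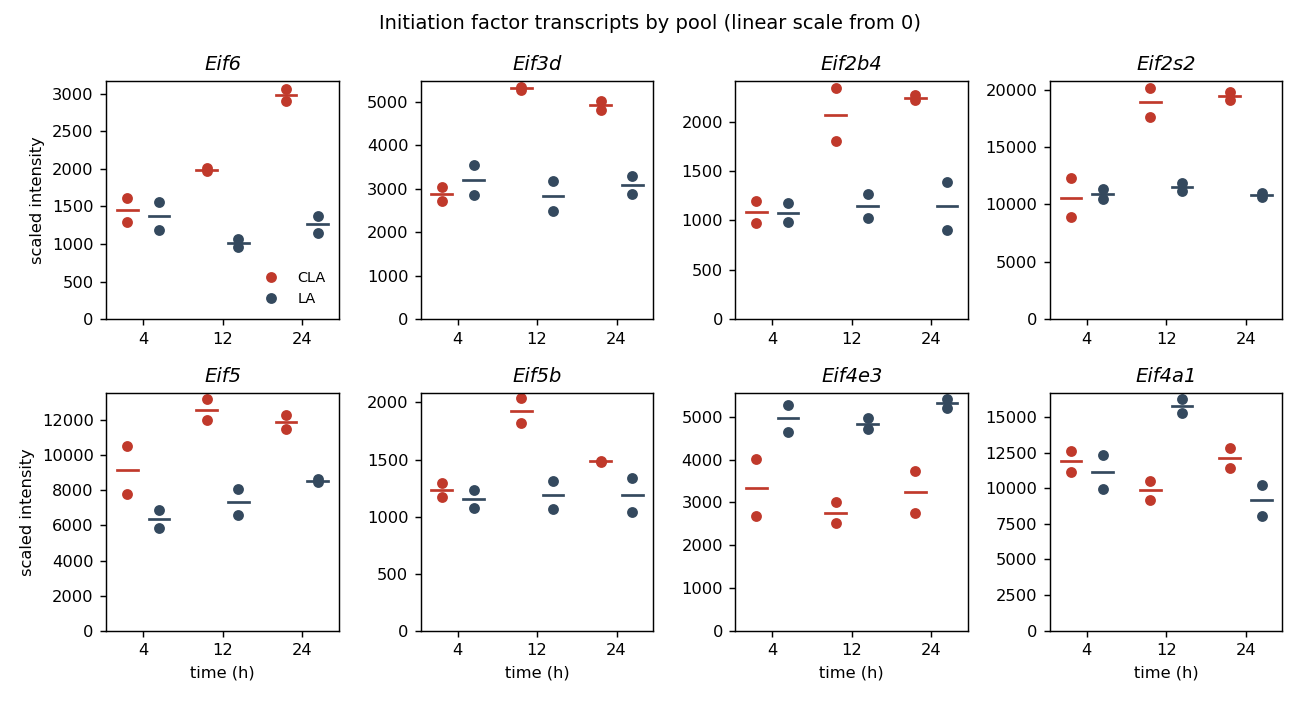
Scaled intensity (linear axes from 0) of 8 initiation factor genes in each pool at 4, 12 and 24 h, CLA left of LA, with bars for the mean of 2 pools. Eif6, Eif3d, Eif2b4 and Eif2s2 were called higher with CLA at 24 h, Eif5 and Eif5b higher and Eif4e3 lower on average, and Eif4a1 is shown as an uncalled gene whose diets change order between 12 and 24 h in the probe set used, 1 of 3.

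**Figure D5:**
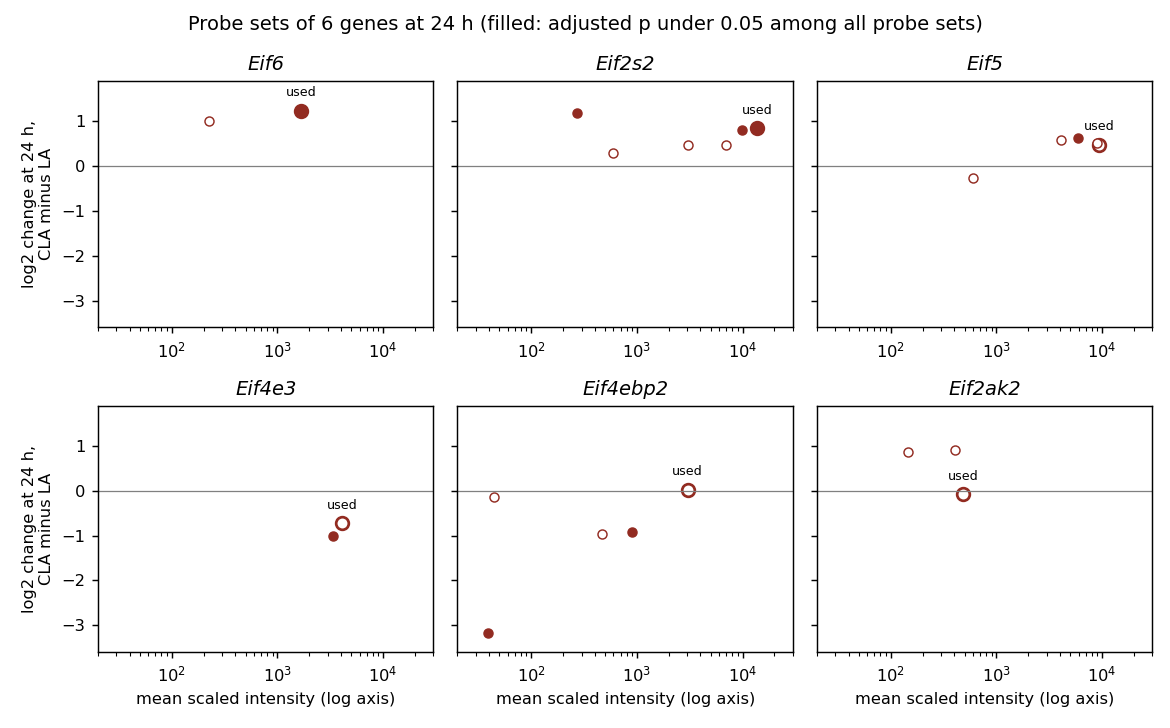
Diet difference at 24 h (log2, CLA minus LA) against the mean scaled intensity (log axis) for every single-gene probe set of 6 genes that passed the filter, with the one used marked and filled symbols for an adjusted p under 0.05 with all probe sets tested together. The probe sets of Eif2s2 lie between 0.29 and 1.18, while those of Eif4ebp2 run from 0.03 down to -3.16 at the dim end.

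The authors' deposited tables, with their own p-values adjusted over the same 12593 genes, called more members. In the authors' deposited table of 4 h, 1 member was higher, Eif5 with a ratio of 1.46, and 0 were lower, beside 0.357% and 0.429% of all genes. The authors' deposited table of 12 h had 9 members higher and 4 lower, beside 7.02% and 7.4% of all genes. In the authors' deposited table of 24 h, 17 members were higher and 4 lower, beside 15.8% and 15.7% of all genes. The limma calls at single times, 2 at 12 h and 4 at 24 h, were all among those of the authors' deposited tables. Eif6 had ratios of 2.11 at 12 h and 2.39 at 24 h in the authors' deposited tables, and Eif4e3 had 0.590 and 0.538.

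Around the initiation factors, a list of 68 genes of the same pathway (mTOR signalling, eIF2 phosphatases and targets, poly(A)-binding proteins, elongation, release and recycling factors) had 61 genes that passed the filter. Of these, 0 were called at 4 h, 6 were higher and 0 lower at 12 h, and 9 were higher and 3 lower at 24 h, beside the shares of all genes given above. The median difference of the list was 0.04, 0.12 and 0.10. On average over the times 8 were higher and 1 lower.

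Atf4, the transcription factor translated when eIF2 is phosphorylated, had 4970.4 and 4793.5 in CLA pools of 12 h, against 1785 and 1734.5 in LA pools. Its difference was 1.46 ± 0.20 at 12 h (2.76-fold, adjusted p = 0.00848 by limma) and 1.26 at 24 h (adjusted p = 0.00381). Ppp1r15a, the inducible subunit of the phosphatase that restores eIF2, had 1830.1 and 1695 in CLA pools of 12 h, against 247 and 315 in LA pools. The diets were 6.03-fold apart at 12 h and 4.56-fold at 24 h (adjusted p = 0.00184 and 0.000651), while Ppp1r15b, the constant counterpart, was not called at any time.

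Ddit3, which encodes the stress transcription factor CHOP, was 6.31-fold higher at 12 h and 3.47-fold at 24 h (adjusted p = 0.00150 and 0.00125 by limma). Trib3, a pseudokinase, was 9.82-fold and 4.91-fold higher at these times (adjusted p = 0.00410 and 0.00321). At 4 h Atf4, Ppp1r15a, Ddit3 and Trib3 were 2.25-fold, 2.81-fold, 2.87-fold and 4.41-fold higher, with the diets apart. None of them was called at 4 h (adjusted p = 0.154, 0.0935, 0.0935 and 0.128 by limma). Also higher at 12 h were Sesn2, an inhibitor of mTOR signalling (2.80 on the log2 scale, with 200 and 153 in CLA pools, against 30.9 and 0 in LA pools), and Abcf3 (1.32). The fold of Sesn2 depends on the 16 added before the logarithm, since both LA pools were under 100.

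At 24 h the list also held Impact, which restrains the kinase GCN2 (1.10, adjusted p = 0.0104 by limma), and the RNA helicase gene Dhx9 (0.96) among the higher genes. Impact had 4156 and 4366 in CLA pools of 24 h, against 2213 and 1768 in LA pools. Lower was Fmr1, a repressor of translation on its target mRNAs (-1.15, adjusted p = 0.0109), with 5568 and 5288 in CLA pools, against 13885 and 10450 in LA pools. Nck1, an adaptor that helps keep eIF2 unphosphorylated, was lower too (-0.93, adjusted p = 0.0404 by limma), with 662 and 672 in CLA pools, against 1613 and 1028 in LA pools.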

How the data were processed

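The authors' deposited table gives, per array, 1 linear intensity per probe set (45101 in all), per the file headers and the values. Of these, 15.7% to 18.8% were at or below 0, and the summarisation method is not given in the sources used here. Per the labels' protocols, biotinylated cRNA was made from 15 µg of Trizol-extracted total RNA. The authors also deposited 3 tables that, per the file headers, list the ratio between groups, its size as a fold, its log10 and a p-value, probe set by probe set; their 6 columns of group intensities do not name the diet and were not used. Their direction, CLA over LA, was taken from the values (Pearson's r across 10240 probe sets 0.878, 0.964 and 0.977 for the table and arrays of one time, at most 0.537 between times).

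Each array was scaled to a mean of 500 without the top and bottom 2% of values, negative values became 0, and log2 was taken after adding 16, so a fold is a ratio of scaled values plus 16. The 64 control probe sets were left out. Gene symbols came from the platform annotation, which can be old, and all 46 member symbols were found unchanged in the reference table. Of 133 single-gene Eif probe sets, 116 passed for the members, 31 members having several, and 6 more named other genes too and were left out. The 6 groups were fitted together in limma 3.58.1 (R 4.3.3, lmFit and eBayes, 6 residual and 2.17 prior degrees of freedom) with two-sided contrasts, and p-values were adjusted by Benjamini-Hochberg over 12593 genes. The fit was tested on simulated data.

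The members and lists were chosen with earlier results of these data known. Arrays are printed in full for members called at a single time, the Eif2ak kinases and the Eif4ebp genes, and up to 8 called pathway genes per contrast are named. Eif5, Eif5b and Eif4e3, which were called on average only, were added after their values were seen. So were Eif4a1 and the other uncalled members with array values. Alternatives were quantile or no scaling, another offset, other filters, averaged probe sets, an intensity trend, a replicate block, single-time fits, leaving out each array, and the authors' tables. The numbers of the replicates do not pair the pools: of 15 pairs of groups, 0 had a correlation over 0.1 between same-numbered deviations (-0.091 to 0.099). Promoters came from RefSeq (GRCm38.p6). Some marker genes were not analysed here.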

Additional observations from a re-analysis of the deposited data

Results flagged for a closer look

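The diet difference of Eif6 differed between 24 and 4 h by the test of the change itself, at 1.15 on the log2 scale (adjusted p = 0.0416 by limma), with 1.24 at 24 h and 0.09 at 4 h. It was the 1 member of 46 for which any such change between times was called in the main fit. The call was kept in 1 of 12 fits that left out 1 array and under 4 of 8 other alternatives. With averaged probe sets the change was 0.95 (adjusted p = 0.214 by limma).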

How the results depend on the processing

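No called difference of a member turned its sign under the alternatives run, while uncalled ones did, such as Eif2ak2 at 24 h (-0.08, and 0.56 with averaged probe sets). With the authors' deposited tables, members called were 1 at 4 h, 9 higher and 4 lower at 12 h, and 17 higher and 4 lower at 24 h. An intensity trend gave 6 higher and 3 lower at 12 h, 8 higher and 2 lower at 24 h, and 1, 2 and 5 changes between times (4 to 12, 12 to 24 and 4 to 24 h). Quantile normalization gave 7 higher at 24 h, and 1 and 2 changes (12 to 24 and 4 to 24 h). One common factor for all arrays gave 0 at 12 h, 3 higher and 0 lower on average, and 0 changes from 4 to 24 h. With an offset of 64 there was 1 lower at 24 h. A filter of 6 arrays, with fewer genes tested, gave 4 higher at 12 h, 2 lower at 24 h and 1 change from 12 to 24 h. Averaged probe sets gave 1 higher at 12 h, 1 lower at 24 h, 2 lower on average and 0 changes from 4 to 24 h. Only the 4 arrays of a time, with fewer samples, gave 0 higher at 12 h and 2 at 24 h. No filter, and the replicate block, each gave 0 changes from 4 to 24 h (Eif6 at adjusted p = 0.0572 and 0.0506 by limma), and on average Eif5b had adjusted p = 0.0600 with no filter, 0.0535 with the block and 0.203 with one common factor. Other causes were not tested.

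Leaving out 1 array gave 0 to 0 members at 4 h, 0 to 4 higher and 0 to 1 lower at 12 h, 1 to 5 higher and 0 to 2 lower at 24 h, 4 to 6 higher and 1 to 1 lower on average, 0 to 4 changes from 4 to 24 h, and 0 to 0 changes between the other times. Of the single members, Eif6 at 24 h was called under all 10 other alternatives as well, and Eif6 at 12 h fell to 0.18 with averaged probe sets. Over all genes, 569 were called at 12 h (52 to 794 without 1 array, 192 with one common factor, 926 with the trend, 1816 in the authors' tables and 0 with 4 arrays) and 2729 at 24 h (1103 to 3310, 1786 with one common factor, and 1341 with 4 arrays). At 4 h 7 genes were called (0 to 32 without 1 array, 2 with one common factor, 23 with the trend, 99 in the authors' tables and 0 with 4 arrays), and on average 1913 (1023 with one common factor, 1186 to 2249 without 1 array). Changes from 4 to 24 h were called for 866 genes (373 with one common factor, 1640 with the trend, 190 to 1792 without 1 array), and from 12 to 24 h for 288 (27 to 630 without 1 array, 110 with one common factor, 985 with the trend). Signal over background limits Eif5a2 and Eif2ak4, whose probe sets were dim.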
